A study of Schistocerca gregaria with 20 samples.

Results

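The subject is a set of 12 transcripts of the desert locust *Schistocerca gregaria* that stood out in the pleuropodia of embryos at day 13 of embryogenesis. They were chosen from 12988 transcripts by their levels: at least 20 RPKM (reads scaled by transcript length in kilobases and by library size) in pleuropodia of day 13, and at least 4 times the highest of the other 9 pleuropodia libraries. The pleuropodia levels of all 10 stages chose the set, day 13 as the peak and the other stages through the fold limit, so pleuropodia values are given as a description and only differences between leg libraries were tested. Of all transcripts 0.0924% met the rule.

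The study sequenced mRNA of pleuropodia and of hind legs (T3 legs, on the third thoracic segment) dissected from embryos incubated at 30 °C. There were 10 pleuropodia libraries and 10 leg libraries, each made from pooled appendages, and in both tissues the stages were days 4, 5, 6, 7, 8, 8-9, 10, 11, 12 and 13. Where a test needed replicates, libraries of neighbouring days served as such (days 4 to 6, 7 to 9 and 10 to 12), and its p-values measure the spread between those days. Day 13 had no replicate in either tissue.

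Pleuropodia are paired glandular appendages on the first abdominal segment of many insect embryos, and they derive from limb buds that are serial homologues of legs. In orthopterans they are known for secreting enzymes that digest the serosal cuticle, the chitinous layer under the eggshell, before the larva hatches. They are temporary organs that degenerate late in embryogenesis and are lost around hatching, while the legs develop larval cuticle and muscle. RNA from a whole appendage does not tell fewer cells of a type from less RNA per cell, nor the reverse.

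The libraries held 15186075 to 36027338 reads in pleuropodia and 27890837 to 36884141 in legs, as recovered from the RPKM values. The leg library of day 12 differed from those of days 10 and 11 at many transcripts, and it is named below wherever it decided a call. The leg gene *dac*, a transcription factor of the middle part of limbs, was at 0.068 RPKM in pleuropodia of day 13 against 9.98 RPKM in legs of day 13. The 225 transcripts that met the same rule at day 13 in legs had a median of 0.067 RPKM in pleuropodia and 123 RPKM in legs at that day. The 77 transcripts that the study listed as abundant in pleuropodia, a list picked on these libraries, took 40.7% of the reads in pleuropodia of day 13 and 0.806% in legs of day 13. Scaling by the trimmed mean of M values (TMM, which sets most transcripts equal between libraries) gave factors of 0.57 in pleuropodia and 0.55 in legs at day 13, close to each other, within a range of 0.55 to 1.36 over all libraries. Levels below are deposited RPKM unless called TMM-scaled.

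The 12 transcripts carry no name in the deposited files, so they are given by their identifiers. None was among the 98 transcripts named or listed in the tables of the study used here, and the study's further tables on proteolysis, moulting fluid proteases, immunity and hormone synthesis were not used here. The transcripts were 422 to 5314 bases long by the recovered lengths, with a median of 1006 bases, against 2013 bases for the 2209 transcripts at 20 RPKM or more in pleuropodia of day 13. The 4 with the highest level were among the 5 shortest, at 816 bases (SgreTa0011931), 498 bases (SgreTa0011630), 422 bases (SgreTa0011752) and 514 bases (SgreTa0012125). The longest were SgreTa0008320 at 5314 bases and SgreTa0014487 at 3666 bases.

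The 12 transcripts together took 0.254% of the reads of pleuropodia at day 13. Their share was 0.035% at day 12 and 0.0081% to 0.015% at the 8 stages before. In legs the share stayed between 0.0083% and 0.022%. At day 13 all 12 reached 1 RPKM in pleuropodia and 9 did in legs. Of the 240 values of the set, 52 were at 0 reads, 20 of them in pleuropodia and 32 in legs, and a count of 0 there allows up to 0.028 to 0.468 RPKM (3 reads), depending on length and depth. Intervals and floors in the text cover counting error only.

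**Figure D1:**
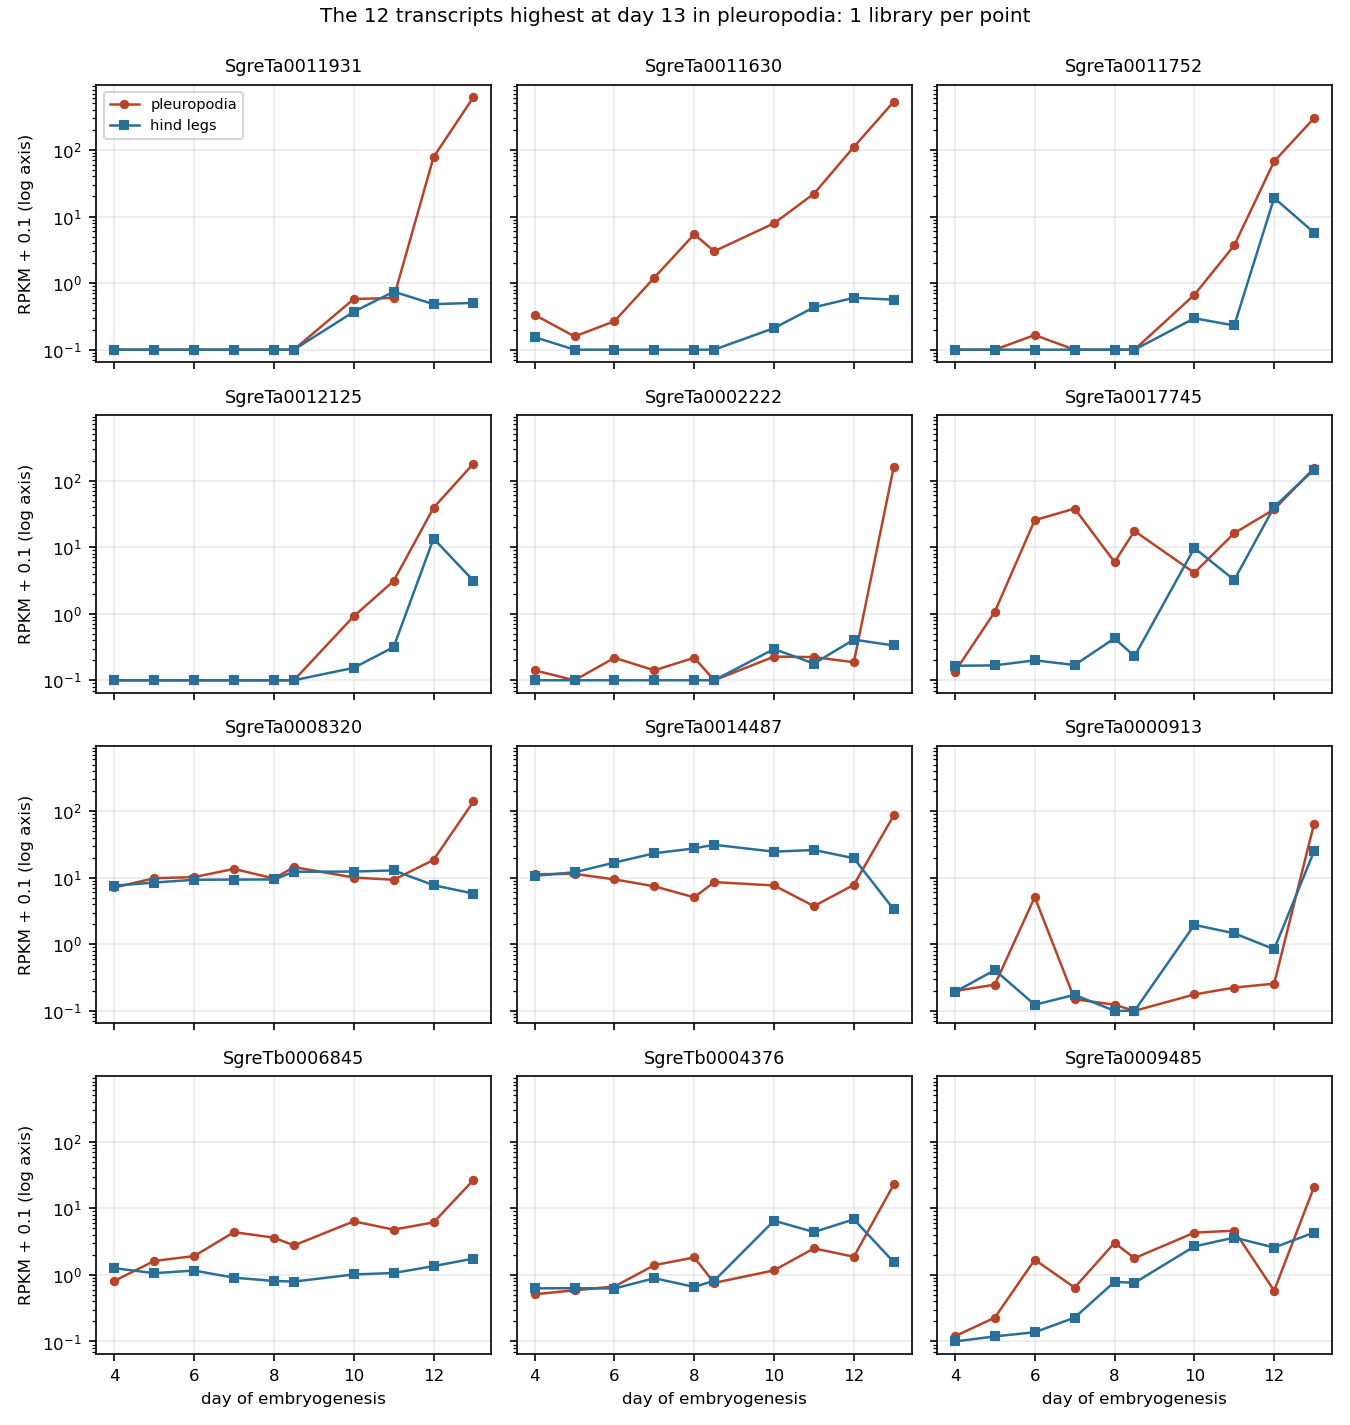
Level of each of the 12 transcripts by day of embryogenesis in pleuropodia (red circles) and hind legs (blue squares), as RPKM + 0.1 on a log axis, with 1 library per point and day 8-9 drawn between days 8 and 9. All 12 peak at day 13 in pleuropodia by the choice of the set, while their earlier levels and their levels in legs differ widely.

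The same rule applied to every other library gave a scale for this number. In pleuropodia the largest numbers were 116 transcripts (day 6) and 22 (day 8-9), days 4, 5 and 11 gave 8, 12 and 11, days 8 and 10 gave 3 each, and days 7 and 12 gave 0. In legs it picked 149 at day 12 and 225 at day 13, which is 1.73% of all transcripts, and 0 to 19 at the other stages. The set of day 13 in pleuropodia was therefore small beside that of day 13 in legs. A single transcript, SgreTa0000913, met the rule in both tissues at day 13, which is 8.33% of the pleuropodia set and 0.444% of the leg set.

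**Figure D2:**
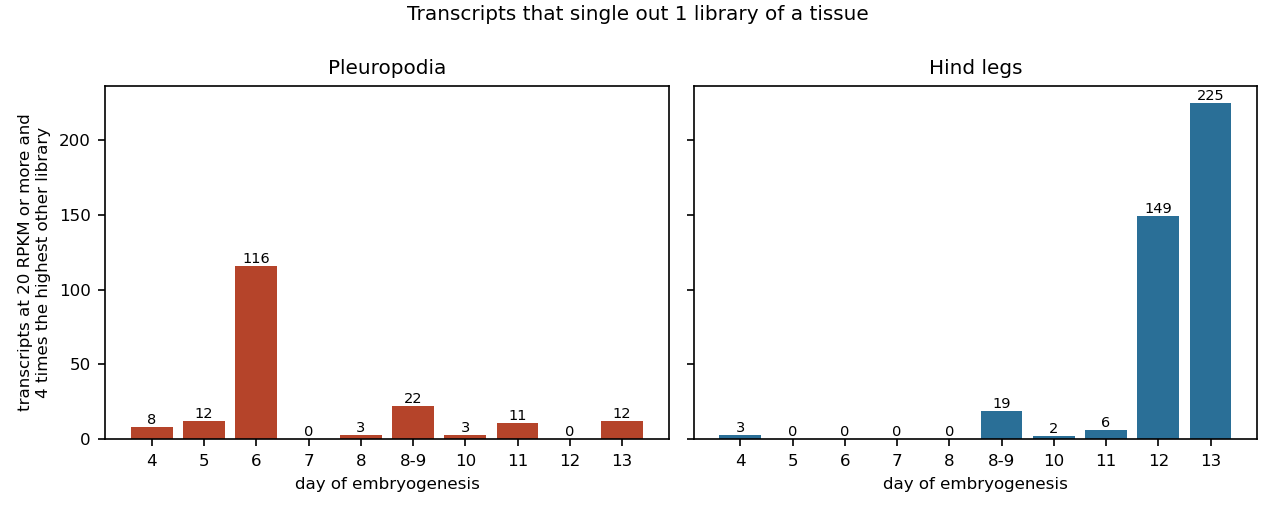
Number of transcripts at 20 RPKM or more and at least 4 times the highest other library of the same tissue, for each stage of pleuropodia (left) and hind legs (right). Day 13 gave 12 in pleuropodia and 225 in legs.

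The 3 transcripts just inside the fold limit were SgreTa0017745 at 4.04 times, SgreTb0006845 at 4.23 times and SgreTa0011752 at 4.46 times the highest other pleuropodia library. The 3 just outside were SgreTa0015584 at 3.94, SgreTa0002401 at 3.88 and SgreTa0012493 at 3.82 times. At the limit of level, SgreTa0009485 (20.8 RPKM), SgreTb0004376 (22.7 RPKM) and SgreTb0006845 (26.5 RPKM) lay just inside, and SgreTa0005641 (17.6 RPKM) and SgreTb0026237 (15.7 RPKM) just outside. The next transcript below that passed the fold limit, SgreTb0024058, was far lower at 4.42 RPKM. With TMM-scaled values 23 transcripts met the rule, the 12 described here among them.

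Before day 13 the transcripts followed different courses in pleuropodia. In a first group of 4, the level climbed over the last days. SgreTa0011931 had no read in pleuropodia from day 4 to day 8-9, then 0.477, 0.499, 77.9 and 622 RPKM at days 10, 11, 12 and 13. It was 156 times higher at day 12 than at day 11 and 7.98 times higher at day 13 than at day 12 (95% interval 7.62 to 8.35), and it had the highest level of the set, rank 105 among all transcripts in that library. In legs it had no read up to day 8-9 and 0.271, 0.644, 0.382 and 0.405 RPKM at days 10, 11, 12 and 13.

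SgreTa0011630 climbed the longest. In pleuropodia it stood at 0.233, 0.058 and 0.167 RPKM at days 4, 5 and 6, at 1.11, 5.31 and 2.91 RPKM at days 7, 8 and 8-9, and at 7.81, 21.9, 111 and 531 RPKM at days 10, 11, 12 and 13. From day 10 each day was higher than the day before, and day 13 was 4.78 times day 12 (4.54 to 5.03). In legs the highest of the 10 libraries had 0.501 RPKM and 5 libraries had no read, so at no stage from day 7 on did the tissues overlap.

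SgreTa0011752 and SgreTa0012125 ran in parallel. SgreTa0011752 had 0.567, 3.58, 67.2 and 300.01 RPKM in pleuropodia at days 10, 11, 12 and 13, and SgreTa0012125 had 0.815, 3.0, 38.9 and 180 RPKM. In legs SgreTa0011752 had 0.196, 0.131, 18.9 and 5.63 RPKM at the same days, and SgreTa0012125 had 0.054, 0.215, 13.4 and 3.02 RPKM. Both thus peaked at day 12 in legs, at a lower level than in pleuropodia of that day, and both were at 0 together in 11 libraries, 5 of pleuropodia and 6 of legs.

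The ratio of SgreTa0011752 to SgreTa0012125 was 1.73 and 1.67 in pleuropodia of days 12 and 13, and 1.42 and 1.87 in legs of days 12 and 13. Pearson's r of their log2(RPKM + 0.5) was 0.994 over the 10 leg libraries, which the rule did not use, and 0.998 over all 20, the highest r of any pair of the set on either measure. Over the 8 libraries of days 10 to 13 alone, without the stages that share zeros, r was 0.996. With no sequence at hand, whether these are separate genes or pieces of a single transcript was not analysed here.

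A second group of 2 was nearly silent until day 13. SgreTa0002222 had 0 to 3 reads in each of the other 9 pleuropodia libraries, at most 0.127 RPKM at day 10, and 3899 reads or 160 RPKM at day 13. Day 13 was 1267 times the highest earlier library, with a wide interval of 432 to 6128 because that library had 3 reads. In legs it had no read up to day 8-9 and 0.195, 0.078, 0.308 and 0.233 RPKM at days 10, 11, 12 and 13, and no leg library held more than 7 reads. It was the transcript of the set most confined to a single library.

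SgreTa0000913 had 0.076, 0.124, 0.156 and 64.4 RPKM in pleuropodia at days 10, 11, 12 and 13. It had an earlier, smaller peak of 5.00 RPKM (212 reads) at day 6 and at most 0.148 RPKM in the other libraries from day 4 to day 8-9. In legs it had at most 0.311 RPKM up to day 8-9, then 1.86, 1.36, 0.743 and 24.9 RPKM at days 10, 11, 12 and 13. The jump between days 12 and 13 was thus present in both tissues, 412 times in pleuropodia and 33.5 times in legs.

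SgreTa0017745 had 2 phases in pleuropodia. It had 0.035, 0.971, 25.3, 37.8, 5.87 and 17.3 RPKM at days 4, 5, 6, 7, 8 and 8-9, then 4.01, 16.1, 36.8 and 153 RPKM at days 10, 11, 12 and 13. Its highest level before day 13 was that of day 7, and day 13 was 4.04 times that (3.78 to 4.33). In legs it stayed between 0.065 and 0.327 RPKM up to day 8-9 and then had 9.59, 3.11, 40.1 and 146 RPKM at days 10, 11, 12 and 13, so that the tissues crossed at days 10 to 12 and ended close together.

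The remaining 5 transcripts had reads in all 9 earlier pleuropodia libraries, at no more than 18.4 RPKM. SgreTa0008320 had between 7.03 and 18.4 RPKM in the 9 earlier pleuropodia libraries, with 9.98, 9.21 and 18.4 RPKM at days 10, 11 and 12, and 140 RPKM at day 13. In legs its level lay between 5.68 and 12.8 RPKM in all 10 libraries. It had 914 to 25561 reads per library, and its level at day 13 in pleuropodia was the only one of 20 above 20 RPKM.

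SgreTa0014487 moved in opposite directions in the tissues. In pleuropodia it had 11.2, 11.3, 9.34, 7.32, 4.97 and 8.5 RPKM at days 4, 5, 6, 7, 8 and 8-9, and 7.55, 3.64, 7.71 and 86.2 RPKM at days 10, 11, 12 and 13. In legs it had 10.6, 12.0, 16.8, 23.2, 27.5 and 31.1 RPKM at days 4, 5, 6, 7, 8 and 8-9, and 24.5, 26.0, 19.5 and 3.24 RPKM at days 10, 11, 12 and 13. From day 5 to day 12 pleuropodia were lower than legs at every stage, and at day 13 they were 26.6 times higher.

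SgreTb0006845 had 0.712 RPKM in pleuropodia at day 4, between 1.52 and 6.28 RPKM at days 5 to 12, and 26.5 RPKM at day 13. In legs it lay between 0.694 and 1.66 RPKM in all 10 libraries, so pleuropodia exceeded legs at every stage from day 5. SgreTb0004376 had between 0.412 and 2.40 RPKM in the 9 earlier pleuropodia libraries and 22.7 RPKM at day 13. In legs SgreTb0004376 was under 1 RPKM up to day 8-9, had 6.42, 4.30 and 6.73 RPKM at days 10, 11 and 12, and 1.46 RPKM at day 13.

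SgreTa0009485 was uneven in pleuropodia, with 4.21, 4.52, 0.480 and 20.8 RPKM at days 10, 11, 12 and 13. Day 13 was 4.61 times the highest earlier library, that of day 11, and 43.4 times day 12. In legs it had 2.58, 3.53, 2.48 and 4.23 RPKM at those days and less than 1 RPKM before.

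The first comparison set pleuropodia against legs at day 13, with 1 library each and therefore no test. Of the 12 transcripts 11 were over 2-fold higher in pleuropodia, and none was over 2-fold lower. Of all transcripts 20.6% were over 2-fold higher, and of the 2209 at 20 RPKM or more in pleuropodia of day 13 the share was 43.2%. Over 4-fold higher were 10 of the 12, 10.9% of all transcripts and 27.2% of those 2209. Pleuropodia of day 13 entered the rule, so a high share was built into the choice and nothing is read from it. The median ratio was 25.6 over the 12 and 1.66 over those 2209 transcripts.

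The ratios fell into separate ranges. The largest were those of SgreTa0011931 at 1536 (95% interval 835 to 3205), SgreTa0011630 at 1143 (555 to 2844) and SgreTa0002222 at 689 (294 to 2116). They rested on 10, 7 and 5 leg reads, so their intervals overlap and they cannot be ranked. SgreTa0012125 at 59.5 (44.7 to 81.2) and SgreTa0011752 at 53.2 (42.2 to 68.2) came next and overlap as well.

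SgreTa0014487 was 26.6 times higher in pleuropodia (23.9 to 29.6), SgreTa0008320 24.6 times (23.1 to 26.3), SgreTb0006845 16.0 times (13.5 to 19.2) and SgreTb0004376 15.6 times (12.5 to 19.6). SgreTa0009485 was 4.92 times higher (4.41 to 5.51) and SgreTa0000913 2.59 times (2.40 to 2.80). SgreTa0017745 had 153 RPKM in pleuropodia and 146 RPKM in legs, a ratio of 1.05 (1.01 to 1.10). It was the only one of the 12 at like levels in both tissues at day 13.

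**Figure D3:**
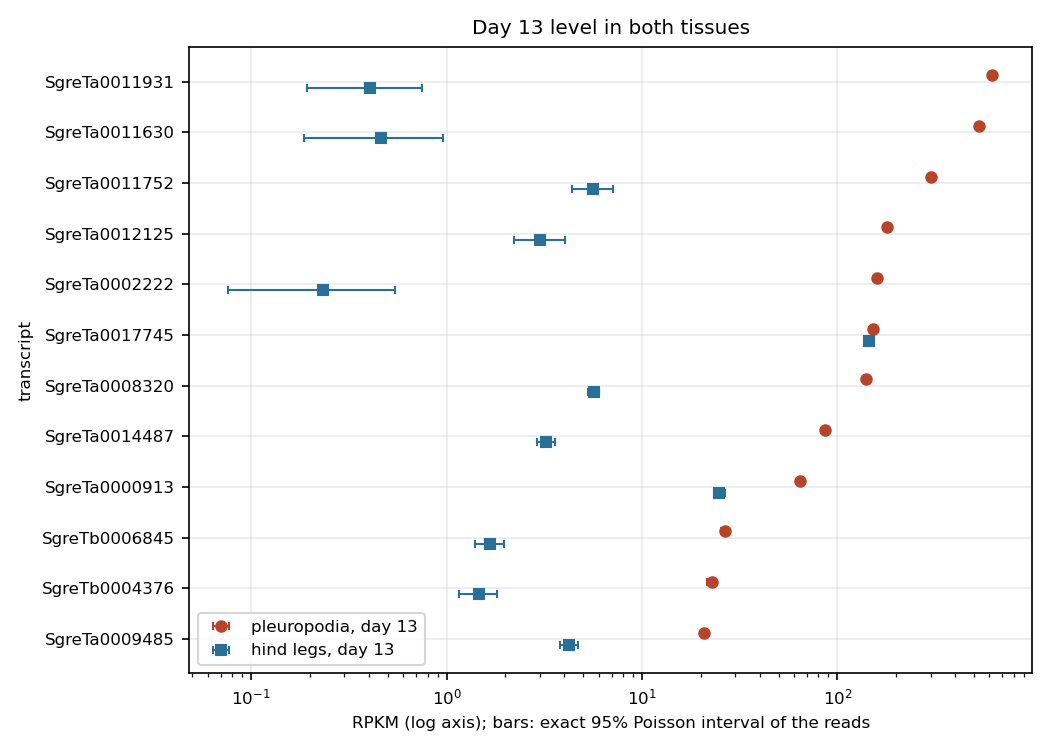
Day 13 level of each transcript in pleuropodia (red circles) and hind legs (blue squares), as RPKM on a log axis, with exact 95% Poisson intervals of the reads as bars, which are narrower than the symbol where reads are many. The tissues lie apart for 11 transcripts, and for SgreTa0017745 they lie at 153 and 146 RPKM.

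Set against the highest of all 10 leg libraries, whatever its stage, 11 of the 12 remained over 2-fold higher in pleuropodia of day 13, and 8 were over 4-fold higher. Those under 4-fold were SgreTb0004376 (3.38 times its highest leg library, day 12), SgreTa0014487 (2.77 times, day 8-9), SgreTa0000913 (2.59 times, day 13) and SgreTa0017745 (1.05 times, day 13). Of all transcripts 8.72% were over 2-fold and 5.75% over 4-fold above their highest leg library in pleuropodia of day 13, and of the 2209 at 20 RPKM or more there the shares were 25.4% and 18.4%. Here too a high share was built into the choice of the 12.

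The second comparison asked whether the day 13 change was shared by legs. Leg libraries did not enter the rule, so it was tested, with limma on log2(RPKM + 0.5) after TMM scaling: day 13 (1 library) against days 10 to 12 (3 libraries), with the spread estimated from these and the 3 pleuropodia libraries of days 10 to 12. Of the 12 transcripts 10 passed the filter of 1 RPKM in at least 3 of the 7 libraries, and SgreTa0011931 and SgreTa0002222 did not. A single transcript was called, higher at day 13, where 0.471% of the 11891 tested were called and 0.404% were called higher. The lone leg library of day 13 is assumed to vary like the others, and part of the spread comes from pleuropodia libraries that the rule used. With the spread taken from the 4 leg libraries only, a fit chosen after seeing the data, no transcript of the set or of all tested was called (1127 of all and 4 of the set had an unadjusted p under 0.05). The calls of this comparison therefore do not settle which of the 12 changed in legs, and the levels below are the main evidence.

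SgreTa0000913 was the transcript called. It had 24.9 RPKM in legs at day 13 against 1.86, 1.36 and 0.743 RPKM at days 10, 11 and 12. On TMM-scaled RPKM it had 1.55, 1.11 and 0.908 in legs at days 10, 11 and 12. In pleuropodia of those days it had at most 0.246. It therefore passed the filter only through its high level at day 13, and its call carries no weight as support. The log2 fold change was 4.77 (SE 0.33, adjusted p = 0.018). The fold kept its size when any single library was left out (4.64 to 4.91), but the call was lost in 4 of those 6 fits (without the leg library of day 10 or 11, or the pleuropodia library of day 10 or 12). The adjusted p was between 0.0018 and 0.083 over the 6 fits, and the call was also lost with a pseudocount of 0.1 RPKM (adjusted p = 0.057) and with the leg libraries only (adjusted p = 0.22).

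SgreTa0017745 had 146 RPKM in legs at day 13 against 9.59, 3.11 and 40.1 RPKM at days 10, 11 and 12. Day 13 lay above all 3, but these differ more than 10-fold among themselves, and the log2 fold change of 4.60 (SE 1.79) did not pass (adjusted p = 0.27). Without the leg library of day 12, which held the 40.1 RPKM, the log2 fold change was 5.70 (adjusted p = 0.034).

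SgreTa0014487 had 3.24 RPKM in legs at day 13 against 24.5, 26.0 and 19.5 RPKM at days 10, 11 and 12. Its log2 fold change of -1.81 (SE 0.44) did not pass either (adjusted p = 0.18). It passed without the leg library of day 12 (-1.75, adjusted p = 0.043), as did SgreTb0006845, with 1.66 RPKM in legs at day 13 against 0.915, 0.967 and 1.25 RPKM (log2 fold change 1.45 without that library, adjusted p = 0.011, and 1.23 with it, adjusted p = 0.24).

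Leaving out that library raised the calls over all transcripts to 2816 higher and 2237 lower, against 48 and 8 with it, and the calls in the set to 4. In 4 of the other 5 such fits none of all transcripts was called (1066 to 1882 had an unadjusted p under 0.05). The other 6 tested transcripts of the set were not called in legs with or without it. For SgreTa0008320 the sign turned with the scaling: the log2 fold change in legs was 0.04 after TMM scaling and -0.85 on deposited RPKM, neither past the threshold. Away from the pseudocount, TMM scaling moved the log2 fold changes of this comparison up by 0.94 relative to deposited RPKM.

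The third comparison asked how the transcripts behaved in legs earlier, at days 10 to 12 against days 4 to 6, with 3 libraries each. Of the 12 transcripts 5 passed the filter, and all 5 were higher at days 10 to 12, where 30.4% of the 10969 tested were called, 18.4% higher and 12% lower. For 3 of the 5 (SgreTa0017745, SgreTb0004376 and SgreTa0009485) only the later libraries reached 1 RPKM, so they could pass the filter only by being higher. Neither their count nor their p-values carry weight as support.

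SgreTb0004376 had 6.42, 4.30 and 6.73 RPKM in legs at days 10 to 12 against 0.527, 0.532 and 0.524 RPKM at days 4 to 6. Its log2 fold change was 2.68 (SE 0.31, adjusted p = 0.0035). SgreTa0009485 had 2.58, 3.53 and 2.48 RPKM against 0, 0.019 and 0.038 RPKM (log2 fold change 2.62, SE 0.20, adjusted p = 0.0012). These 2 kept their calls whichever of the 6 libraries was left out. The filter read all 6 libraries in each of these fits, so this does not undo their selection.

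SgreTa0014487 had 24.5, 26.0 and 19.5 RPKM in legs at days 10 to 12 against 10.6, 12.0 and 16.8 RPKM at days 4 to 6 (log2 fold change 1.05, SE 0.19, adjusted p = 0.013), with no overlap. The call was lost without the leg library of day 4 (adjusted p = 0.052) or of day 5 (adjusted p = 0.069). SgreTa0008320 had 12.3, 12.8 and 7.62 RPKM against 7.49, 8.36 and 9.22 RPKM, where the day 12 value lies within the earlier range before scaling. Its log2 fold change was 0.55 (SE 0.13, adjusted p = 0.028) after TMM scaling and 0.33 without it (adjusted p = 0.32), and leaving out any leg library but that of day 12 ended the call (adjusted p up to 0.12). SgreTa0017745 had 9.59, 3.11 and 40.1 RPKM against 0.065, 0.067 and 0.099 RPKM, with no overlap and with a log2 fold change of 4.27 (SE 0.99, adjusted p = 0.026) whose call was lost without the leg library of day 4, 5, 6 or 10 (adjusted p up to 0.094).

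The fourth comparison set pleuropodia against legs before day 13. The rule used the pleuropodia values of these stages, keeping them to at most the day 13 level divided by 4, so the fitted differences are a description and no p is given for them. At days 10 to 12, with 3 libraries each, 9 of the 12 passed the filter. The fit across all transcripts put 2 of them past its threshold as higher and 1 as lower in pleuropodia, where 45.3% of the 11597 tested were past it, 24.4% higher and 20.9% lower, and nothing is read from this count.

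SgreTa0011630 had 7.81, 21.9 and 111 RPKM in pleuropodia at days 10, 11 and 12 against 0.111, 0.333 and 0.501 RPKM in legs, a log2 fold change of 5.60 (SE 1.0). It reached 1 RPKM in pleuropodia only, so it could pass the filter only by being higher there. SgreTb0006845 had 6.28, 4.68 and 6.04 RPKM in pleuropodia against 0.915, 0.967 and 1.25 RPKM in legs (log2 fold change 2.51, SE 0.27). Neither overlapped between tissues.

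SgreTa0014487 was lower, with 7.55, 3.64 and 7.71 RPKM in pleuropodia against 24.5, 26.0 and 19.5 RPKM in legs (log2 fold change -1.31, SE 0.31). SgreTb0004376 had 1.07, 2.40 and 1.77 RPKM in pleuropodia against 6.42, 4.30 and 6.73 RPKM in legs, with a log2 fold change of -1.03 (SE 0.41) after TMM scaling and -1.51 on deposited RPKM. In both the tissues did not overlap at these days, and legs were the higher tissue.

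SgreTa0011752 and SgreTa0012125 had log2 fold changes of 2.08 and 2.06, with SE of 2.11 and 1.84 that are about as large. Within each of these days pleuropodia exceeded legs for both, but the difference between days 10 and 12 was larger than that between the tissues. SgreTa0017745, SgreTa0008320 and SgreTa0009485 had log2 fold changes of 0.86, 0.73 and 0.23 (SE 1.26, 0.34 and 0.67).

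At days 7 to 9, with 3 libraries each, 4 of the 12 passed the filter. Fold changes and SE below come from the fit without the day as a block, unless said. It put 2 past its threshold as higher and 1 as lower in pleuropodia, where 46.8% of the 10850 tested were past it, 25.6% higher and 21.1% lower. With the day as a block, since libraries of the same day deviated together at these stages, the fit put 3 past its threshold as higher and 1 as lower, where 66.8% of all tested were past it. The day 8-9 libraries had the highest r between tissues (0.69) and came from another centre in both tissues. Day and centre cannot be told apart there.

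SgreTa0017745 had 37.8, 5.87 and 17.3 RPKM in pleuropodia at days 7, 8 and 8-9 against 0.069, 0.327 and 0.129 RPKM in legs, a log2 fold change of 4.68 (SE 0.56). SgreTb0006845 had 4.29, 3.52 and 2.67 RPKM in pleuropodia against 0.807, 0.711 and 0.694 RPKM in legs (log2 fold change 1.85, SE 0.22). Both reached 1 TMM-scaled RPKM in pleuropodia only, so they too could pass the filter only by being higher there.

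SgreTa0014487 was again lower, with 7.32, 4.97 and 8.5 RPKM in pleuropodia against 23.2, 27.5 and 31.1 RPKM in legs (log2 fold change -1.61, SE 0.21). SgreTa0008320 had 13.5, 9.63 and 14.3 RPKM in pleuropodia against 9.27, 9.31 and 12.2 RPKM in legs, a log2 fold change of 0.56 with an SE of 0.19, or of 0.09 with the day as a block. It is the member that the block added. The other 8 transcripts were under the filter.

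**Figure D4:**
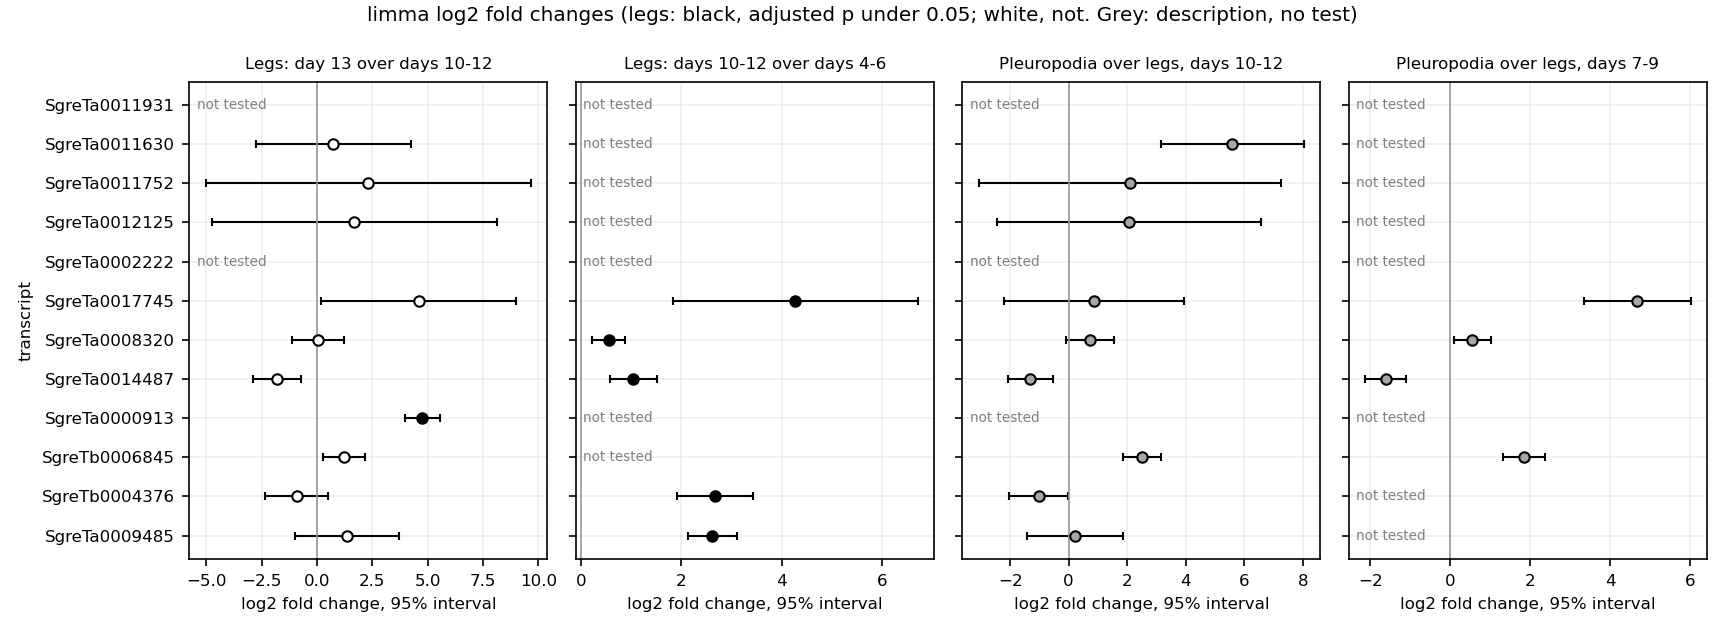
Log2 fold changes from limma with 95% intervals for each transcript in 4 comparisons: legs at day 13 over days 10 to 12, legs at days 10 to 12 over days 4 to 6, and pleuropodia over legs at days 10 to 12 and at days 7 to 9. In the leg comparisons black points passed an adjusted p of 0.05 and white points did not, the grey points of the tissue comparisons are a description with no test, and transcripts under the filter are marked as not tested. All points come from fits without the day as a block.

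By their levels in legs the 12 fall into kinds that the rule did not fix. The shares of all transcripts in these kinds were not counted, so the kinds are a description. SgreTa0011931, SgreTa0011630 and SgreTa0002222 were under 1 RPKM in all 10 leg libraries. SgreTa0011752 and SgreTa0012125 reached 18.9 and 13.4 RPKM at day 12 and were under 1 RPKM up to day 11. SgreTa0017745, SgreTa0000913, SgreTb0006845 and SgreTa0009485 had their highest leg level at day 13. SgreTa0008320, SgreTa0014487 and SgreTb0004376 had a lower RPKM in legs at day 13 than at each of days 10, 11 and 12. After TMM scaling this held for SgreTa0014487 and SgreTb0004376, while SgreTa0008320 had 10.2 TMM-scaled RPKM at day 13 against 10.2, 10.4 and 9.31.

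For the proteins that pleuropodia are known to secrete, the study's tables name transcripts. None of the 98 transcripts named or listed in those used here met the rule, and the study's further tables were not checked. Of the 98 listed transcripts 17 were highest at day 13 in pleuropodia (17.3%), against 272 of the 2209 transcripts at 20 RPKM or more in that library (12.3%). The largest ratio to the highest other pleuropodia library among the 98 was 2.84, for a cathepsin L (SgreTb0000759), a lysosomal protease. It had 4655 RPKM in pleuropodia at day 13 and 1641 RPKM at day 12.

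A chitinase 5 (SgreTa0017664), an enzyme that cuts chitin chains, had 15374 RPKM in pleuropodia at day 13 and 7102 RPKM at day 12, a ratio of 2.16. The beta-N-acetylglucosaminidase SgreTa0005600, which takes single sugars off chitin fragments, was at 0.898 times its highest other library. By list, 1 of 2 transcripts of chitin degradation, 3 of 16 serine proteases, 2 of 11 other peptidases and 2 of 3 lysosomal proteins were highest at day 13. Of 3 serine protease inhibitors 1 was, SgreTa0002155, which the study names as uncharacterized and not as a serpin. None of 4 lysozymes, 3 lipid transfer proteins, 4 ion and water transporters and 3 redox enzymes was. These lists hold only transcripts with identifiers in the tables used here, and the study reports further chitin-degrading enzymes and lysozymes. At day 13 the cathepsin L, the chitinase 5 and the acetylglucosaminidase each had a higher level in pleuropodia than any of the 12, and each fell short of the fold limit.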

How the data were processed

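The members and lists were chosen with earlier results of these data known. The authors mapped reads with Bowtie2 2.2.5 to their own embryonic transcriptome, after FastQC and, for day 8-9, Trimmomatic, removed transcripts of constantly low expression, and deposited RPKM, although the matrix is labelled as counts. The authors' mean RPKM of days 10 to 12 equalled the matrix means for all 12965 transcripts they list once zeros were set to 0.5 RPKM (relative tolerance 1e-06). Their table of NOISeq log2 ratios, differences, probabilities and ranks was not used. Day 8-9 libraries came from another centre in both tissues.

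Within a library each RPKM is a whole multiple of 1 read. A depth and lengths (200 bases or more, the shortest that fit) were sought that make all values whole, and 100% came out whole within 0.05 reads, partly by this construction. Too short a length would make reads too few and intervals too wide. Reads in the matrix were 99.5% to 99.8% of the depth. Intervals are exact 95% Poisson limits, or exact binomial limits for ratios.

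Tests used limma 3.58.1 (R 4.3.3), with a trend, on log2(RPKM + 0.5) after TMM scaling on recovered reads (30% of ratios and 5% of abundances trimmed), over transcripts that reached 1 RPKM in 3 or more of the fitted libraries. Calls needed an adjusted p (Benjamini-Hochberg, all tested transcripts) under 0.05. Fold changes of low transcripts are understated by the pseudocount. On simulated data the fit recovered 47 of 50 transcripts changed 4-fold and 7 of 50 changed 2-fold for legs at day 13 (12421 transcripts). Apart from the planted changes, the simulated libraries shared a common mean for each transcript, without the differences between days in the data. These shares therefore do not give the rate of detection in the data, where SgreTa0017745 had an SE of 1.79. The rest was done in Python 3.11.15 (scipy 1.17.1, matplotlib 3.10.9, numpy 2.4.6, pandas 2.3.3). All 12 transcripts are named, as the naming rule (highest level, highest ratio, level in legs, nearness to the limits) covered each. Libraries of the same day deviated together at days 7 to 9 (r of 0.43, 0.45 and 0.69 between tissues) but not at days 10 to 12 (0.23, -0.0019 and 0.20). At days 7 to 9 a fit with the day as a block is therefore given beside the main fit. The printed fold changes and SE come from fits without the block, unless said. In legs at day 13 a fit on leg libraries only was added after seeing the data. Alternatives were the scaling, the pseudocount, the filter, single libraries left out and the limits of the rule.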

Additional observations from a re-analysis of the deposited data

Results flagged for a closer look

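A pair of transcripts moved in opposite directions in the tissues at day 13. In legs the log2 of day 13 over the mean RPKM of days 10 to 12 was -2.85 for SgreTa0014487, and in pleuropodia it was 3.77. For SgreTb0004376 it was -2.0 in legs and 3.70 in pleuropodia. In both, day 13 lay above every pleuropodia library of days 10 to 12 and below every leg library of those days, on deposited and on TMM-scaled RPKM. The share of all transcripts with such a drop in legs was not counted, so nothing is read from the number of these transcripts. The fitted log2 fold changes in legs after TMM scaling were smaller. They were -1.81 (SE 0.44) for SgreTa0014487 and -0.91 (SE 0.58) for SgreTb0004376, and neither decrease was called. Each direction rests on 1 library of day 13, the pleuropodia direction was fixed by the choice of the transcripts, and the difference between the tissues was not tested.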

How the results depend on the processing

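The number of transcripts meeting the rule was 12 as chosen, 23 with TMM-scaled RPKM and 3 with a fold limit of 8. It was 18 with a fold limit of 3, 9 and 14 with level limits of 50 and 10 RPKM, and 12 without day 8-9. At day 13, 11 were over 2-fold and 10 over 4-fold higher in pleuropodia than in legs. In legs at day 13 against days 10 to 12, calls in the set fell to 0 with a pseudocount of 0.1 RPKM, where 1 of all transcripts was called, were 0 with the leg libraries only (added after seeing the data), and ranged from 0 to 4 with single libraries left out. In legs at days 10 to 12 against days 4 to 6 they ranged from 2 to 5, with pleuropodia against legs from 2 to 4 at days 10 to 12 and from 3 to 4 at days 7 to 9. The counts of pleuropodia against legs are a description, since the rule used pleuropodia values. With the day as a block (replicate block) they were 5 at days 10 to 12, with SgreTa0011752 and SgreTa0012125 added, although the days do not pair these libraries by the check used, and 4 at days 7 to 9. Signs turned for 3 transcripts, none of them called in the main fit of the comparison concerned. SgreTa0008320 in legs at day 13 had a log2 fold change of -0.85 with library totals only and -0.0098 without the leg library of day 12, with 0.066 as the highest value when a single library was left out. SgreTa0009485 in pleuropodia against legs at days 10 to 12 had -0.22 with library totals only. It had -0.10 without the pleuropodia library of day 10 and -0.22 without that of day 11. Without that of day 12 it had 1.01, and only that fit put it past the threshold when single libraries were left out. SgreTa0017745 had -0.057 there without the leg library of day 11 and 1.96 without that of day 12. The causes were not tested. Of the other values for single transcripts 281 kept their direction and, where tested, their side of the threshold, 19 lost and 9 gained a call. With 1 library per stage, day 13 has no replicate check. Changes of 2-fold in legs of day 13 were mostly missed even on simulated data, which lacked the differences between days.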
